A study of Drosophila melanogaster with 2 samples.

Results

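Aminoacyl-tRNA synthetases are the enzymes that attach each amino acid to its transfer RNA. The family was examined for regions recovered with the circadian transcription factor Clock (Clk) in adult flies. Members were taken as protein-coding genes whose Ensembl symbol is built from the 3-letter code of an amino acid, or of 2 of them, followed by RS, with the suffix -m for mitochondrial enzymes. The pattern matched 33 of 13945 protein-coding genes on the 6 chromosome arms tested, 18 without the suffix and 15 with it. The 18 are called cytoplasmic here by symbol alone, and whether any of them also serves mitochondria was not examined. The pattern leaves out alpha-PheRS and beta-PheRS, the subunit genes of the cytoplasmic phenylalanine enzyme, and these are described with the other genes of tRNA charging. The material was a single group of whole male adult Drosophila melanogaster, of an age the labels call unknown, from 1 transgenic line in which green fluorescent protein (GFP) is fused to the C-terminus of Clk. Chromatin was precipitated in 2 biological replicates with an antibody that the description calls anti-GFP and the antibody field calls Clk, and no untagged line, second genotype or second time of day was compared. Chromatin immunoprecipitation with sequencing (ChIP-seq) of whole flies pools all tissues, so strong binding in few cells and weak binding in many cannot be told apart, and the labels give no collection time.

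Cells need a charged tRNA for every amino acid, so the cytoplasmic enzymes are expressed in all tissues. Mitochondria translate a small set of proteins on ribosomes of their own, and the mitochondrial synthetases are encoded in the nucleus, made in the cytoplasm and imported. Clk pairs with Cycle and binds the E-box CACGTG at clock genes, activating them in a daily rhythm. The values below are regions on build dm6 as the authors listed them. The reproducible list held 2464 peaks that passed the authors' irreproducible discovery rate (IDR) threshold, with signal values of 72.4 or more and a median of 109. The pooled list and the list of each replicate held 30000 candidate regions each. The pooled list is labelled as peaks and background for input to the IDR step, so its weak regions may be background. The signal value is the peak caller's own, and its scale differs between lists, so ranks (1 is the strongest) carry the comparison between replicates. Read depth is unknown, since the lists hold no read counts. A gene was scored as having a peak when a summit lay within 1 kb of any of its annotated start sites.

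Cytoplasmic synthetase genes carried a reproducible peak at their start site more often than mitochondrial ones did. The cytoplasmic count was 7 of 18 genes, or 38.9%, namely GluProRS, SerRS, IleRS, AspRS, AsnRS, ThrRS and GlnRS. The mitochondrial count was 1 of 15 genes, or 6.67%, and that gene was LeuRS-m. Together these were 8 of 33 genes, or 24.2%, beside 16.1% of all protein-coding genes. No test was attached to these counts, because the 33 genes are the whole family in 1 group of flies and not replicates of a condition. The numbers in each replicate's strongest 2464 regions were similar. Replicate 1 had 6 of 18 cytoplasmic and 1 of 15 mitochondrial genes, beside 16.1% of all genes. In replicate 2 it was 7 of 18 cytoplasmic and 1 of 15 mitochondrial genes, beside 15.6% of all genes. Replicate 1 had no such region at GlnRS. Replicate 2 had none at ThrRS and had one at GlyRS.

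**Figure D1:**
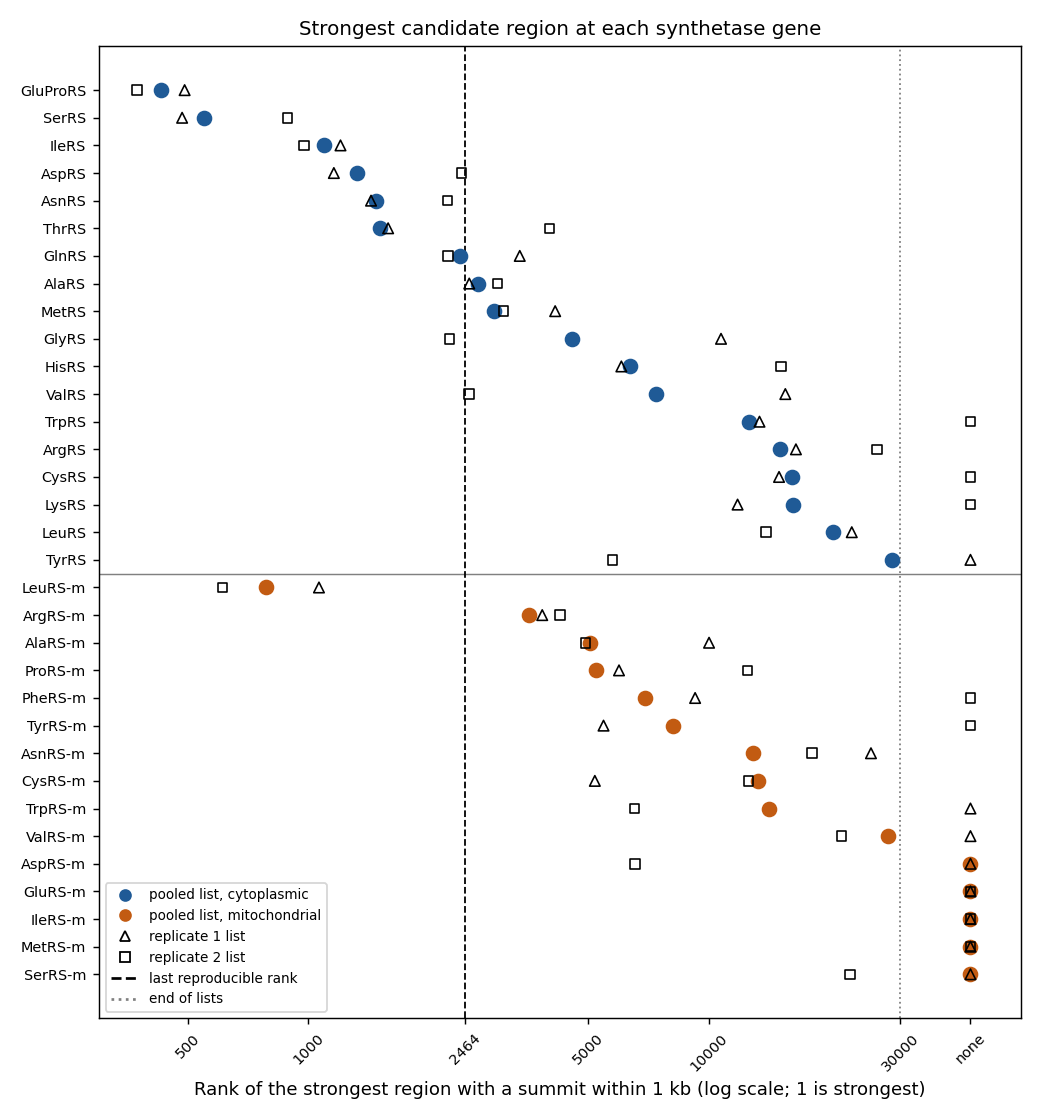
Rank of the strongest region with a summit within 1 kb of each of the 33 genes, on a log axis, with cytoplasmic genes above and mitochondrial genes below. Filled circles are the pooled list, triangles replicate 1 and squares replicate 2, each with its own strongest region, and points at "none" had no region in that list. The dashed line is rank 2464, the last of the reproducible list: 7 cytoplasmic genes and 1 mitochondrial gene lie to its left.

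The best peaks of the 8 genes ranked 429 to 2391 of 2464, with a median rank of 1207.5, beside 1143.5 over the 1752 reproducible peaks within 1 kb of any protein-coding start site. The strongest lay at GluProRS, which encodes the bifunctional enzyme for glutamate and proline, on chromosome 3R (23958325 to 23958744, summit 23958535, intergenic). It had a signal of 194 and rank 429, with signals of 117 (rank 491) in replicate 1 and 76.0 (rank 373) in replicate 2. The SerRS peak on chromosome 2L (3037148 to 3037567, summit 3037358) lay in the 5′ UTR of that gene and in an intron of CG17260, with a signal of 168 and rank 549. Its replicate signals were 118 (rank 484) in replicate 1 and 49.4 (rank 888) in replicate 2. Both genes ranked within the strongest 888 regions in each replicate.

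The peaks of IleRS, AsnRS and ThrRS were weaker and intergenic. IleRS had a signal of 118 and rank 1096 (chromosome 3L, 22288314 to 22288733, summit 22288524), with 71.8 (rank 1203) in replicate 1 and 47.6 (rank 975) in replicate 2. AsnRS had 98.4 and rank 1479 (chromosome 2L, 19131806 to 19132225, summit 19132016), with 64.3 (rank 1434) in replicate 1 and 30.9 (rank 2223) in replicate 2. ThrRS had 96.7 and rank 1514 (chromosome 2L, 12103396 to 12103815, summit 12103606). At ThrRS the replicates stood apart, with a signal of 61.0 (rank 1582) in replicate 1 and 22.6 (rank 4002) in replicate 2. GlnRS had the weakest peak of the 8, on chromosome 3R (25265593 to 25266012, summit 25265803), with a signal of 73.8 and rank 2391, just inside the end of the reproducible list. Replicate 1 gave it 38.9 (rank 3372) and replicate 2 gave it 30.9 (rank 2235).

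The DNA under these summits held no complete CACGTG within 50 bp of the summit and varied in its content of G and C. The windows below reach 50 bp to each side of the summit, from the RefSeq Release 6 sequence of build dm6, and are written 5′ to 3′ on the strand of the synthetase gene. They are shown because the E-box is the textbook Clk sequence. Capitals mark the looser pattern CANNTG, and windows without capitals hold none. SerRS and AspRS are left out because their summits lie in a UTR.
GluProRS (chr3R:23958485-23958585, minus strand): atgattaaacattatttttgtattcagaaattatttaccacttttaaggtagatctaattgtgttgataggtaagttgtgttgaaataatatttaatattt
IleRS (chr3L:22288474-22288574, plus strand): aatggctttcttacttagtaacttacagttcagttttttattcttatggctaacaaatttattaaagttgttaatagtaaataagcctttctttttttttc
AsnRS (chr2L:19131966-19132066, minus strand): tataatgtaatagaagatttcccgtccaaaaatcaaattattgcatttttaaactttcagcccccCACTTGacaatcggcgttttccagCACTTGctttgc
ThrRS (chr2L:12103556-12103656, plus strand): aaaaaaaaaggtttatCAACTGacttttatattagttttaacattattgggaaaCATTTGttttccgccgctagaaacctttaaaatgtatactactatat
GlnRS (chr3R:25265753-25265853, minus strand): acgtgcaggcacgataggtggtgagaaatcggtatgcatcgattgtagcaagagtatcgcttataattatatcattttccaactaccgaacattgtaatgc
LeuRS-m (chr3L:4824807-4824907, plus strand): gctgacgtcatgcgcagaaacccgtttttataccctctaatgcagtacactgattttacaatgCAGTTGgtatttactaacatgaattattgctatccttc
The GluProRS window had 20.8% G and C, that of IleRS 23.8%, those of ThrRS and SerRS 25.7% each and that of AspRS 28.7%. The AsnRS window had 37.6%, that of LeuRS-m 38.6% and that of GlnRS 40.6%. Over the best peaks of the 8 genes the mean was 30.2% ± 7.61 (SD over peaks), beside 38.1% ± 10.6 over the 1752 reproducible peaks near protein-coding start sites.

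GlnRS was the gene of the 8 with a CACGTG in its peak region. The copy lay at chr3R:25265849-25265854, with its centre 48.5 bp from the summit. Its first base on the strand of GlnRS therefore fell outside the 50 bp window. The copy is shown in capitals with 11 bases to each side, on the strand of GlnRS.
GlnRS (chr3R:25265838-25265865, minus strand): ttttcgtttcaCACGTGcaggcacgata
With the summit that replicate 1 gave, 10 bp away, this E-box fell inside the window, and with that of replicate 2 it did not. The nearest CACGTG to the summit was 516 bp away at ThrRS, 854 bp at GluProRS and 975 bp at LeuRS-m. SerRS, IleRS, AspRS and AsnRS had none within 1 kb of the summit. Counting windows of 50 bp to each side, 0 of 8 genes had CACGTG at the best peak, beside 1.08% of the 1752 peaks. CANNTG, searched on both strands like the other patterns and including CACGTG as a special case, was found at 3 of 8, in AsnRS, ThrRS and LeuRS-m, beside 36.9%. TATCGATA, the binding sequence of the factor DREF, and GAGAG, that of GAGA factor, were found at 0 of 8, beside 3.03% and 13.1%. These counts rest on 8 windows and were not tested.

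In each of the 7 cytoplasmic genes the summit lay close to a synthetase start site, at distances of 45 to 152 bp, and in 6 of the 7 it was upstream. SerRS was the exception, with a summit 45 bp downstream of the start site. In all 8 genes the same summit was also within 1 kb of the start site of a neighbouring gene that is transcribed the other way. Over all reproducible peaks near protein-coding start sites, 44.9% had start sites of 2 or more genes within 1 kb. That share counts peaks rather than genes and takes neighbours on either strand, so it is not a like measure. GluProRS shared its peak with AP-1sigma, a subunit gene of a clathrin adaptor. The summit was 144 bp upstream of GluProRS and 116 bp upstream of AP-1sigma. IleRS shared with Hem, which encodes a subunit of the actin-regulating WAVE complex, AsnRS with the dynactin subunit gene DCTN6-p27, ThrRS with Patsas and SerRS with CG17260. GlnRS shared with RIOK2, a kinase gene of small ribosomal subunit maturation, whose start site was 41 bp from the summit, beside 82 bp for GlnRS. The synthetase start site was the nearer in 4 of the 8 genes (SerRS, IleRS, AsnRS and ThrRS) and the neighbour's in the other 4. A summit within 1 kb of the start sites of both genes cannot be assigned to either gene from these files.

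**Figure D2:**
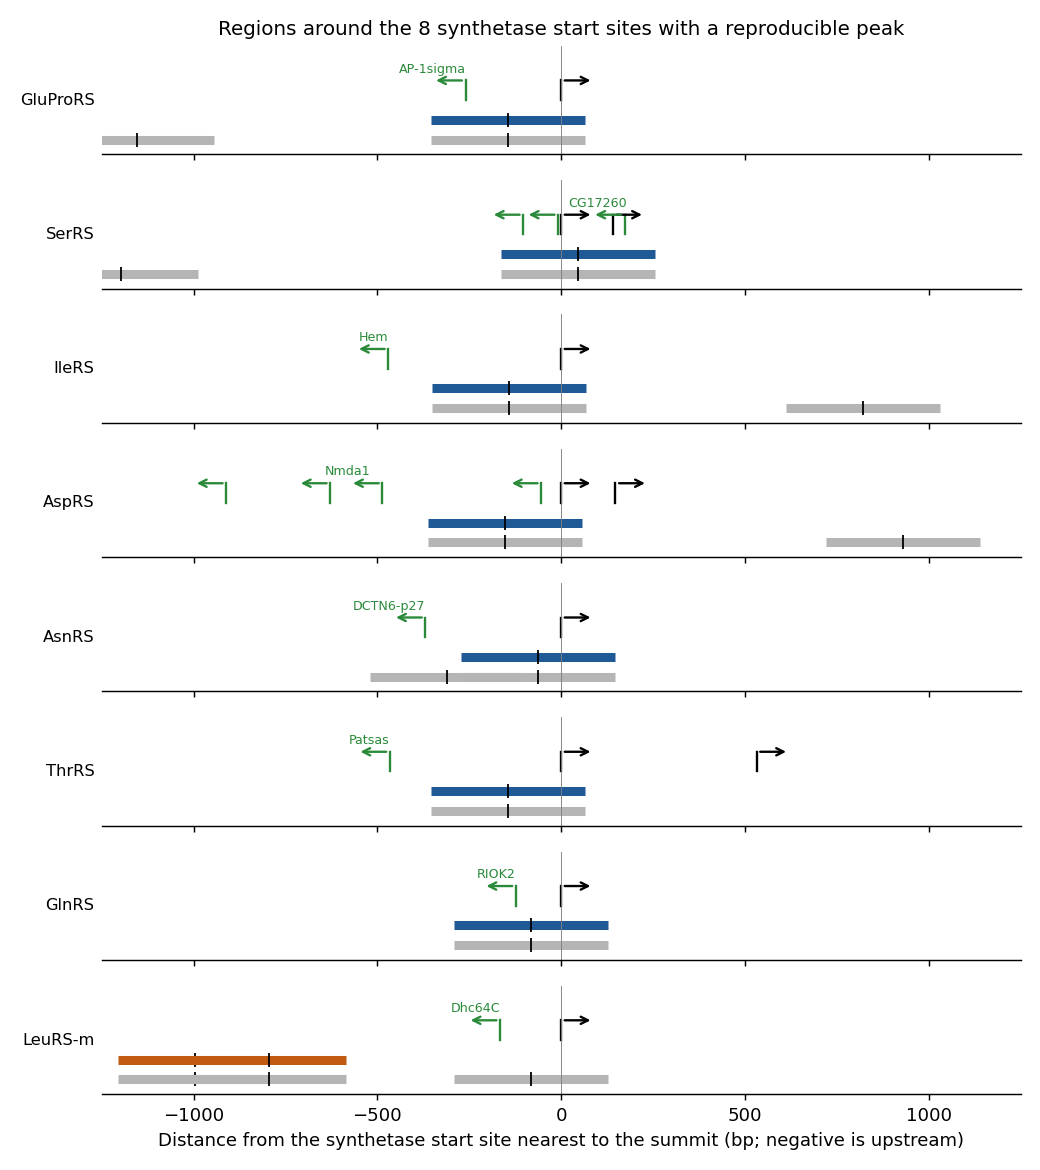
Positions of regions around the 8 start sites with a reproducible peak, as the distance in bp from the synthetase start site nearest to the summit, drawn so that the synthetase runs to the right. Coloured bars are reproducible peaks, grey bars are pooled candidates and ticks are summits. Black arrows are synthetase start sites and green arrows are those of other protein-coding genes. The 7 cytoplasmic summits lie within 152 bp of the synthetase start site, and those of LeuRS-m lie 794 and 996 bp upstream.

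AspRS and LeuRS-m were less simple. AspRS has 3 annotated start sites on chromosome 2R, and its peak (12879922 to 12880341, summit 12880132, signal 105, rank 1319) lay 152 bp upstream of an internal one, in an AspRS intron and in the 5′ UTR of the oppositely transcribed Nmda1. Replicate 1 gave 73.2 (rank 1158) and replicate 2 gave 29.8 (rank 2410). With the most upstream start site alone, AspRS had no peak, and the cytoplasmic count was 6 of 18, beside 14.6% of all genes. LeuRS-m had a pair of reproducible peaks on chromosome 3L, both in an intron of Dhc64C, the cytoplasmic dynein heavy chain gene that starts 166 bp away on the other strand. The stronger one (4824647 to 4825066, summit 4824857, signal 141, rank 785) lay 996 bp upstream of LeuRS-m, just inside the 1 kb limit, and 830 bp downstream of the Dhc64C start site. Its signals were 77.2 (rank 1063) in replicate 1 and 58.9 (rank 611) in replicate 2. The weaker one (summit 4825059, signal 90.9, rank 1692) lay 794 bp upstream, had rank 1886 in replicate 1 and had no replicate 2 summit of its own within 150 bp. At the LeuRS-m start site itself there was only a weak candidate, 81 bp upstream, with a signal of 22.7 and rank 18905. With a 500 bp window 7 of 18 cytoplasmic genes still had a peak, 0 of 15 mitochondrial genes had one, and the share over all genes was 14.1%.

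Start sites that face a neighbour were common in the family, and more so among the cytoplasmic genes. A gene was called head-to-head when the start site of another protein-coding gene on the opposite strand lay within 1 kb upstream. This held for 16 of 18 cytoplasmic genes, or 88.9%, and for 7 of 15 mitochondrial genes, or 46.7%, beside 36.2% of all protein-coding genes. All 8 genes with a reproducible peak were head-to-head, beside 1471 of the 2248 protein-coding genes with such a peak. For AspRS the closest facing gene was Lfg, 38 bp away at the most upstream start site, and Nmda1 faced the start site with the peak. Among head-to-head genes a reproducible peak was present in 7 of 16 cytoplasmic and 1 of 7 mitochondrial genes, beside 29.1% of all such genes. Among the rest it was present in 0 of 2 cytoplasmic and 0 of 8 mitochondrial genes, beside 8.74%. The arrangement therefore moves with the class and with the peak count, and its part in the difference between the classes was not tested. The number of start sites differed too. A single start site was annotated in 11 of 18 cytoplasmic and 13 of 15 mitochondrial genes, beside 73.5% of all genes. Among these, 3 of 11 cytoplasmic and 1 of 13 mitochondrial genes had a peak, beside 11.9% of all genes with 1 start site. With over 1 start site, 4 of 7 cytoplasmic and 0 of 2 mitochondrial genes had a peak, beside 27.8% of all such genes.

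**Figure D3:**
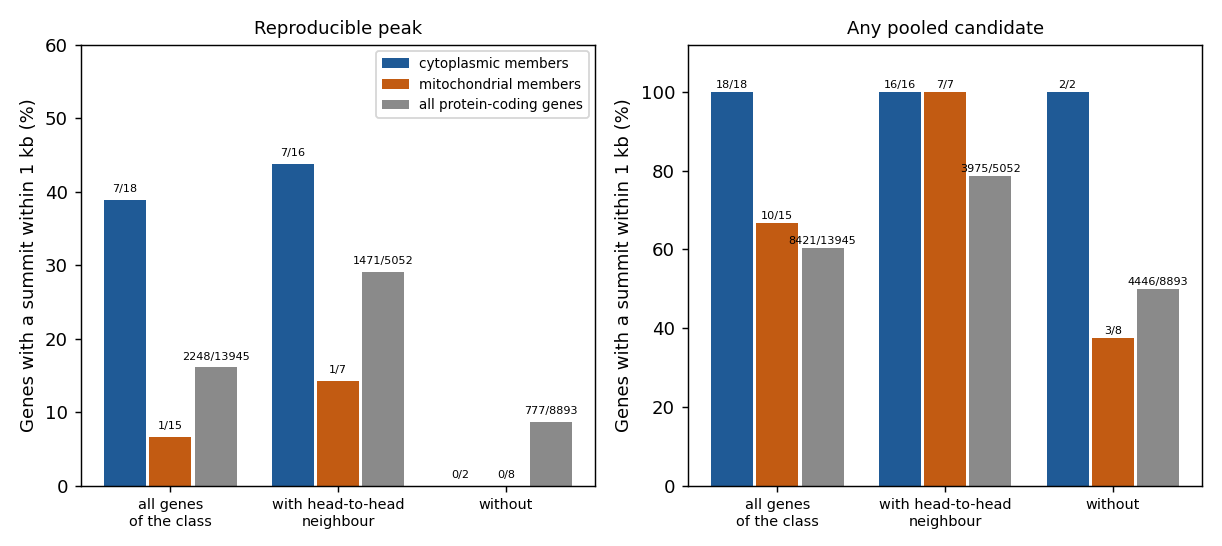
Share of genes in percent with a reproducible peak (left) or any pooled candidate (right) within 1 kb of a start site, for cytoplasmic synthetase genes, mitochondrial synthetase genes and all protein-coding genes. Each group of bars is the whole class, genes with a head-to-head neighbour or genes without one, and the counts stand above the bars. In the left panel 7 of 16 cytoplasmic and 1 of 7 mitochondrial head-to-head genes had a peak, and none of the 10 synthetase genes without such a neighbour did.

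Over the whole classes, weaker regions were also more frequent at cytoplasmic genes. Since the pooled list includes background, a candidate of any rank is not by itself evidence of binding. The deposited −log10 q of the best candidate was 0.0666 at TyrRS and 0.0722 at ValRS-m, beside 3.60 at GluProRS. A pooled candidate of any rank lay within 1 kb of a start site in 18 of 18 cytoplasmic genes and 10 of 15 mitochondrial genes, or 66.7%. In all it was 28 of 33, beside 60.4% of all genes. By the same rule all 23 head-to-head synthetase genes had one, 16 of 16 cytoplasmic and 7 of 7 mitochondrial, beside 78.7% of all head-to-head genes. Among head-to-head genes the classes therefore did not differ in this measure. Of the 10 others 5 had one, 2 of 2 cytoplasmic and 3 of 8 mitochondrial, beside 50%. Counting genes without a region as last, the median rank of the strongest candidate was 3733 in cytoplasmic genes and 13282 in mitochondrial genes, beside 18685 over all genes. A rank of 10000 or better was reached by 12 of 18 cytoplasmic and 6 of 15 mitochondrial genes, beside 37.8% of all genes. A candidate in both replicates, at any summit within 1 kb, was present in 14 of 18 cytoplasmic and 6 of 15 mitochondrial genes, or 20 of 33, beside 47.3% of all genes.

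Of the 11 cytoplasmic genes with a candidate but no reproducible peak, AlaRS and MetRS were the nearest to the threshold. AlaRS had a pooled signal of 69.1 (rank 2645), 116 bp upstream, with rank 2522 in replicate 1 and rank 3417 in replicate 2 at that summit. MetRS had 65.2 (rank 2908), 152 bp upstream, with rank 4133 in replicate 1 and rank 3074 in replicate 2. These values sit below the 73.8 of GlnRS by little, so the boundary between genes with and without a reproducible peak falls among neighbours in rank. A reproducible summit (rank 1791) also lay 1073 bp from an AlaRS start site, just outside the window. With region overlap in place of the summit AlaRS was counted, giving 8 of 18 cytoplasmic genes, beside 16.8% of all genes. GlyRS had 49.6 (rank 4558) and the replicates differed, with rank 10725 in replicate 1 and rank 2254 in replicate 2. HisRS had 40.6 (rank 6370), and ValRS had 37.4 (rank 7365) at a summit 790 bp upstream that replicate 1 lacked. TrpRS, ArgRS, CysRS, LysRS, LeuRS and TyrRS had signals of 27.8 or less, at ranks 12624 to 28589. TrpRS, CysRS and LysRS had no replicate 2 candidate within 1 kb, and TyrRS had none in replicate 1. The TyrRS region (signal 18.2) was close to the end of the pooled list.

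Among mitochondrial genes, ArgRS-m was the next after LeuRS-m, with a pooled signal of 57.5 (rank 3560) 216 bp upstream and ranks of 3837 in replicate 1 and 4253 in replicate 2. AlaRS-m followed with 46.6 (rank 5057), and ProRS-m with 45.8 (rank 5214). AlaRS-m had ranks of 10012 in replicate 1 and 4917 in replicate 2, and ProRS-m had 5966 in replicate 1 and 12495 in replicate 2. PheRS-m (38.7, rank 6925) and TyrRS-m (35.3, rank 8138) had a candidate in replicate 1 only. AsnRS-m, CysRS-m, TrpRS-m and ValRS-m had pooled signals of 27.6 or less, at ranks 12860 to 27941. The 5 genes with no pooled candidate within 1 kb were AspRS-m, GluRS-m, IleRS-m, MetRS-m and SerRS-m, and none of these has a head-to-head neighbour. AspRS-m and SerRS-m had a candidate in replicate 2 alone, at ranks 6541 and 22535. GluRS-m, IleRS-m and MetRS-m had none in any list.

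The classes were also compared gene by gene where a cytoplasmic and a mitochondrial gene serve the same amino acid. There were 14 such amino acids, with GluProRS set against both GluRS-m and ProRS-m, so those 2 share a gene. The cytoplasmic gene had the higher ranked region in 10 of 14 in the pooled list, again in 10 of 14 in replicate 1 and in 10 of 14 in replicate 2. In the pooled list these include aspartate, glutamate, isoleucine, methionine and serine, where the mitochondrial gene had no region and counted as last. The order was the same in all 3 lists for 12 of the 14, and it turned for tryptophan and tyrosine. The mitochondrial gene ranked higher for arginine (ArgRS 15065 and ArgRS-m 3560), cysteine (CysRS 16142 and CysRS-m 13282), leucine (LeuRS 20414 and LeuRS-m 785) and tyrosine (TyrRS 28589 and TyrRS-m 8138). The order at leucine rests on the peaks inside Dhc64C. At cysteine the pooled order rests on a summit 695 bp downstream of the CysRS-m start site. The other CysRS-m candidate, 107 bp upstream, ranked 27917. At valine, where the cytoplasmic gene ranked higher, the pooled candidates of ValRS lay 790 and 537 bp upstream. Only the cytoplasmic gene is head-to-head at aspartate, glutamate, isoleucine, methionine, serine, tryptophan and valine, and only the mitochondrial gene at alanine and cysteine. Where both are, the cytoplasmic gene ranked higher for asparagine and proline, and the mitochondrial gene for arginine, leucine and tyrosine. The part of this arrangement in the pair order was not tested. Glutamine, glycine, histidine, lysine and threonine had a gene without the suffix alone, and 2 of these 5 genes, GlnRS and ThrRS, had a reproducible peak.

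**Figure D4:**
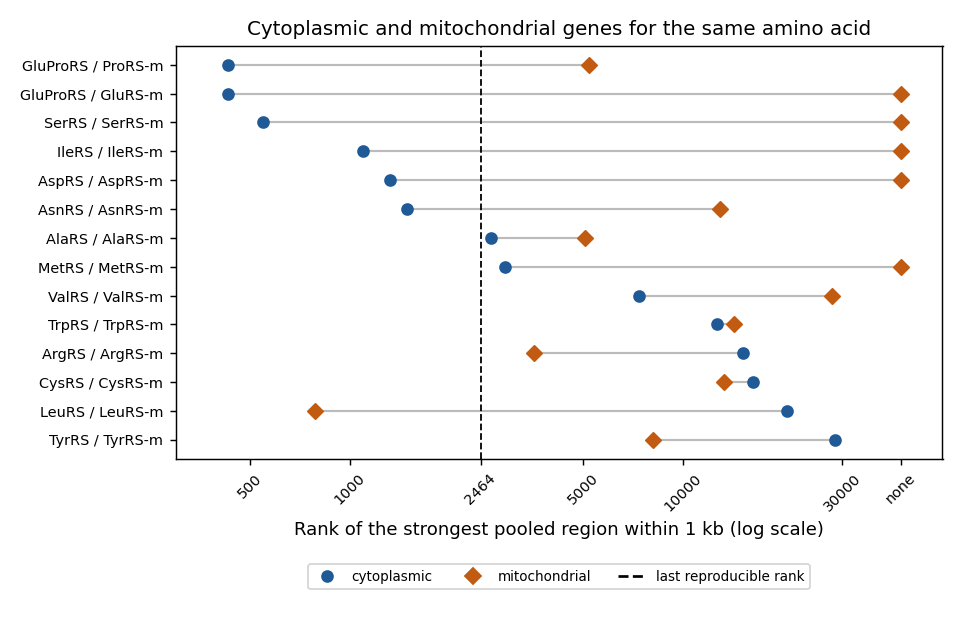
Rank of the strongest pooled region within 1 kb of a start site, on a log axis, for the cytoplasmic gene (circle) and the mitochondrial gene (diamond) of each of 14 amino acids. Points at "none" had no pooled region. The circle lies to the left in 10 of 14 rows, and the 4 rows at the bottom run the other way.

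Other genes of tRNA charging were taken from a list of 14 symbols, of which 12 matched the annotation. Of the 12, 4 had a reproducible peak by the same 1 kb rule, beside 16.1% of all protein-coding genes, and 9 had a pooled candidate, beside 60.4%. The strongest was at eEF1alpha1, the elongation factor that delivers charged tRNA to the ribosome, with a signal of 139 and rank 798, 61 bp upstream of a start site, and ranks of 626 in replicate 1 and 2260 in replicate 2. GatA encodes a subunit of the amidotransferase that makes mitochondrial glutaminyl-tRNA from glutamyl-tRNA. It had 134 and rank 867, 97 bp upstream, with ranks of 1076 in replicate 1 and 630 in replicate 2, and the peak was shared with P5cr. beta-PheRS had 94.5 and rank 1581, 84 bp upstream, with ranks of 4113 in replicate 1 and 785 in replicate 2. mEFTu1, a gene for the mitochondrial elongation factor, had 73.5 and rank 2405 at a summit 599 bp upstream and also within 1 kb of a start site of mip120, with ranks of 4018 in replicate 1 and 2788 in replicate 2. Candidates alone were present at GatC (rank 4589), AIMP1 (rank 5658), eEF1alpha2 (rank 6917), mEFTu2 (rank 21944) and alpha-PheRS (rank 25344). AIMP2, AIMP3 and GatB had none in the pooled list; the AIMP genes encode scaffold proteins of the multisynthetase complex. The subunit genes of the cytoplasmic phenylalanine enzyme thus stood apart from each other, with beta-PheRS at rank 1581 and alpha-PheRS at rank 25344. With both added to the family, 9 of 35 genes had a reproducible peak, or 25.7%, beside 16.1% of all protein-coding genes.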

How the data were processed

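ChIP-seq regions came from 2 biological replicates of 1 group. Per the labels and the notes that accompany the files, the authors called candidate regions on dm6 in each replicate and in both pooled, against a control alignment, and deposited an IDR-thresholded list. The deposited signal value is the authors' peak caller's, used only to rank regions within a list. The deposited −log10 q-value column was not used for ranking, since 7 of the 8 best peaks at the family share its highest value. The summit offset, a base count, was deposited by the authors too. The aligner, the peak caller, its filters and the cut-off of the IDR step: not given in the sources used here. Depth is unknown.

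Each transcript of a protein-coding gene gave a start site, from Ensembl release 115 (BDGP6.54); sequence was RefSeq Release 6, the same assembly as dm6. Coordinates are 1-based. A replicate region matched a summit within 150 bp. Regions on dm3 were not used here. Every member was named by rule; other tRNA charging genes, motifs and alternatives were listed with earlier results of these data known, as were the members, and the head-to-head split was chosen after the positions were seen. No test was run. Gene assignment and motif counting were tested on simulated data. Python 3.11.15, NumPy 2.4.6, pandas 2.3.3 and matplotlib 3.10.9 were used.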

Additional observations from a re-analysis of the deposited data

How the results depend on the processing

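Of 44 alternative values computed, 30 lay within 1.5 times the reported count or median and 14 did not. With a 5 kb window in place of 1 kb, 15 of 33 genes had a reproducible peak (11 cytoplasmic and 4 mitochondrial, beside 30% of all genes), and all 33 had a candidate in both replicates, beside 81.9% of all genes. With each peak given to its nearest gene alone, 4 cytoplasmic genes and 0 mitochondrial genes had one, beside 11.3% of all genes, since GluProRS, AspRS, GlnRS and LeuRS-m were lost to their neighbours. With the stronger 1232 peaks 4 of 33 had one, 3 of them cytoplasmic, beside 9.31% of all genes. With 4928 pooled regions 12 of 33 had one, 10 cytoplasmic and 2 mitochondrial, beside 25.8% of all genes. With a 500 bp window the mitochondrial count was 0. Leaving out a replicate gave 7 to 8 genes in all, 6 to 7 cytoplasmic and 1 mitochondrial, beside 15.6% to 16.1% of all genes. The median ranks were then 1180.5 to 1599. A CACGTG was found at 1 of 8 best peaks with 100 bp to each side and in the whole region, and at 0 to 1 with a replicate's own summits, the GlnRS copy in each case. For reproducible peaks, the measure recomputed by class, the cytoplasmic count was above the mitochondrial one under each alternative. No paired analysis was possible because there was 1 group and no test. Depth is unknown, and weak regions beyond rank 30000 were not seen.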

Other observations

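Reproducible peaks inside or within 1 kb of a synthetase gene, but over 1 kb from its start sites, lay at other genes' start sites. One peak lay 110 bp past the 3′ end of SerRS-m (chromosome 3R, summit 15343328, signal 110.0, rank 1211), 72 bp from the start site of Nagk and 2661 bp from that of SerRS-m. Another lay 673 bp past the 3′ end of GlnRS (chromosome 3R, summit 25262594, signal 98.5, rank 1476), 96 bp from a start site of Kdsr. Inside AspRS a weaker peak (chromosome 2R, summit 12878867, signal 77.0, rank 2226) lay 61 bp from a start site of Nmda1. LeuRS lies beside the clock gene timeless (tim) on chromosome 2L. The tim promoter peak (rank 53) was 2960 bp beyond the 3′ end of LeuRS and 7288 bp from its start site, where the best candidate ranked 20414. TyrRS and GluRS-m were the members farthest from any reproducible summit, at 162138 and 164263 bp.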
